A study of Homo sapiens with 8 samples.

Results

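Cytosolic ribosomal protein genes were followed in H1299 and H2009, cell lines from human lung adenocarcinoma in the study's description, after knockdown of PTK7, a receptor tyrosine kinase-like protein of Wnt and planar cell polarity signalling that lacks catalytic activity. A gene was a member if the single symbol of its probe set in the array annotation was RPL or RPS followed by a number and at most 1 letter A, X or L, or was RPLP0, RPLP1, RPLP2 or RPSA, which left out pseudogenes and the S6 kinases. This gave 61 of 18404 genes, 39 of the large subunit (60S) and 22 of the small subunit (40S), each read by its brightest probe set, and no filter on low values removed any. They comprised 57 of the 77 human ribosomal proteins named RPL or RPS and 4 paralogs, RPL3L, RPL10L, RPL39L and RPS27L. The other 20 were not analysed here, among them 11 whose probe sets carried several symbols (RPL6, RPL9, RPL13A, RPL21, RPL36A, RPL37, RPL39, RPS10, RPS12, RPS18 and RPS26).

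Each line was infected with 4 lentiviral hairpins, PTK7-1 and PTK7-2 against PTK7, plus a hairpin each for GFP and for luciferase (LUC) as controls, with 1 array of total RNA per hairpin and line, 8 arrays in all. All groups, controls included, had 2 days of infection and 2 days of puromycin selection, with RNA taken at day 4. The groups were thus PTK7 hairpins and control hairpins in H1299, and the same in H2009, each of 2 arrays with different hairpins. No label tells whether separate cultures were grown, so the p-values measure only the spread between these arrays, and their number limits the precision. A lower signal from fewer cells of a kind and from less RNA per cell cannot be told apart.

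All values are log2 expression values as deposited. PTK7 itself stood at 5.63 with PTK7-1 and 5.53 with PTK7-2 in H1299, against 5.73 with GFP and 6.03 with LUC. In H2009 it stood at 5.63 with PTK7-1 and 5.94 with PTK7-2, against 6.64 with GFP and 6.86 with LUC. Both PTK7 arrays lay below both control arrays in each line, by less in H1299. Over both lines its difference from the controls did not pass the threshold with either hairpin (limma adjusted p = 0.155 for PTK7-1 and 0.166 for PTK7-2). The epithelial markers EPCAM, CDH1 and KRT19 were dim in every H1299 array, at 3.32 to 3.58, 3.92 to 4.19 and 5.27 to 5.66, and bright in every H2009 array, at 11.17 to 11.30, 11.17 to 11.43 and 11.25 to 11.39. Leukocyte, fibroblast and endothelium markers had 0 of 5, 0 of 6 and 0 of 6 genes past the threshold with either PTK7 hairpin. Of all genes, 1.8% passed with PTK7-1 and 2.7% with PTK7-2.

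The ribosome is built from 4 ribosomal RNAs and a fixed set of ribosomal proteins that are needed in near-equal amounts. Their mRNAs are among the most abundant of a growing cell and typically begin with a C followed by a tract of pyrimidines, the 5′ terminal oligopyrimidine or TOP motif, through which mTORC1 and the binding protein LARP1 control their translation. Free RPL5 and RPL11 bind MDM2, which links ribosome assembly to p53. H1299 and H2009 are p53-defective lines, and p53 activity was not measured here. MDM2 and RPS27L are therefore given below as values and not as readouts of p53.

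The start of the transcript shows this shared feature, and it is printed for 6 of the members described below and for the paralog RPS27L as a contrast. RefSeq promoter entries on GRCh38.p14 were found for 50 of the 61 members, with 60 annotated starts among them. A C at the start followed by C or T at each of the next 4 positions was present at 1 or more starts of 36 of the 50, or 72.0%, against 5.14% of all 27305 genes in the table. Each line below runs from 40 bases before the start through the first 20 transcribed bases, with capitals marking the unbroken run of C and T that begins at the start.
RPL29: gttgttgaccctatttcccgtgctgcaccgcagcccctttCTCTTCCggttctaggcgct
RPL3: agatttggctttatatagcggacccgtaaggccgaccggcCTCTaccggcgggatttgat
RPL24: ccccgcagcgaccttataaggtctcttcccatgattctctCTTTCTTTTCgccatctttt
RPS24: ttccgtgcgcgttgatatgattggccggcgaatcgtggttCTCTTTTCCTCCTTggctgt
RPS23: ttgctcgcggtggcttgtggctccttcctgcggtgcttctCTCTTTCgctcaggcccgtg
RPS4X: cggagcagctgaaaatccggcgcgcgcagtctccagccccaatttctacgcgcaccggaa
RPS27L: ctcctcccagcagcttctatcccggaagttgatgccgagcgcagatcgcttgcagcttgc
These windows lie at chr3:51995876-51995935 (minus strand) for RPL29, chr22:39319604-39319663 (minus) for RPL3, chr3:101686699-101686758 (minus) for RPL24, chr10:78033823-78033882 (plus) for RPS24, chr5:82278335-82278394 (minus) for RPS23, chrX:72277229-72277288 (minus) for RPS4X and chr15:63157458-63157517 (minus) for RPS27L. Of these 7 windows, that of RPS24 had the longest run, with 14 bases, followed by RPL24, with 10, while RPL7A, not printed, had 16. At RPL3 it stopped after 4, one short of the rule used here. At the annotated starts of RPS4X and RPS27L no such run began. Over the whole window of 250 bases before to 50 after the start, on either strand, CCGGAAG, a core bound by ETS factors such as GABPA, was present in 38.0% of members against 12.2% of all genes. AAGATGGCG, a YY1 core, was present in 6.0% against 2.135%. The letters AAG end CCGGAAG and begin AAGATGGCG, so that a match of each can overlap, and a match describes letters and not binding.

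The probe sets of the members were bright, with 44 of 61 in the brightest 5% of genes on these arrays. Median log2 values of the 61 were 10.98 in both PTK7 arrays of H1299, against 11.22 with GFP and 11.10 with LUC. In H2009 they were 10.92 with PTK7-1 and 10.87 with PTK7-2, against 10.89 with GFP and 10.88 with LUC. Subtracting from each gene the mean of the 2 controls of its line, the median member stood at -0.06 with PTK7-1 and -0.09 with PTK7-2 in H1299, where the controls stood at 0.04 and -0.04. In H2009 it stood at 0.05 with PTK7-1 and -0.03 with PTK7-2, and the controls at 0.02 and -0.02. By these brightest probe sets, the shift of the median was small in every array. Both PTK7 arrays lay below both controls in H1299 and on either side of them in H2009. Of the 61 members, 29 had a mean above 11. A dimmer probe set gave a larger PTK7-2 difference over both lines for RPS27 (-0.51 against -0.10) and RPL34 (-0.46 against -0.12). It gave a smaller one for RPL29 (-0.75 against -1.01) and RPL14 (-0.17 against -0.21). Whether the brightest signals understate differences was not tested. The medians of the 40S and 60S members were -0.06 and -0.06 with PTK7-1 and -0.10 and -0.07 with PTK7-2 in H1299. In H2009 they were 0.06 and 0.05 with PTK7-1, and -0.0043 and -0.05 with PTK7-2, and the difference between the subunits was not tested.

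**Figure D1:**
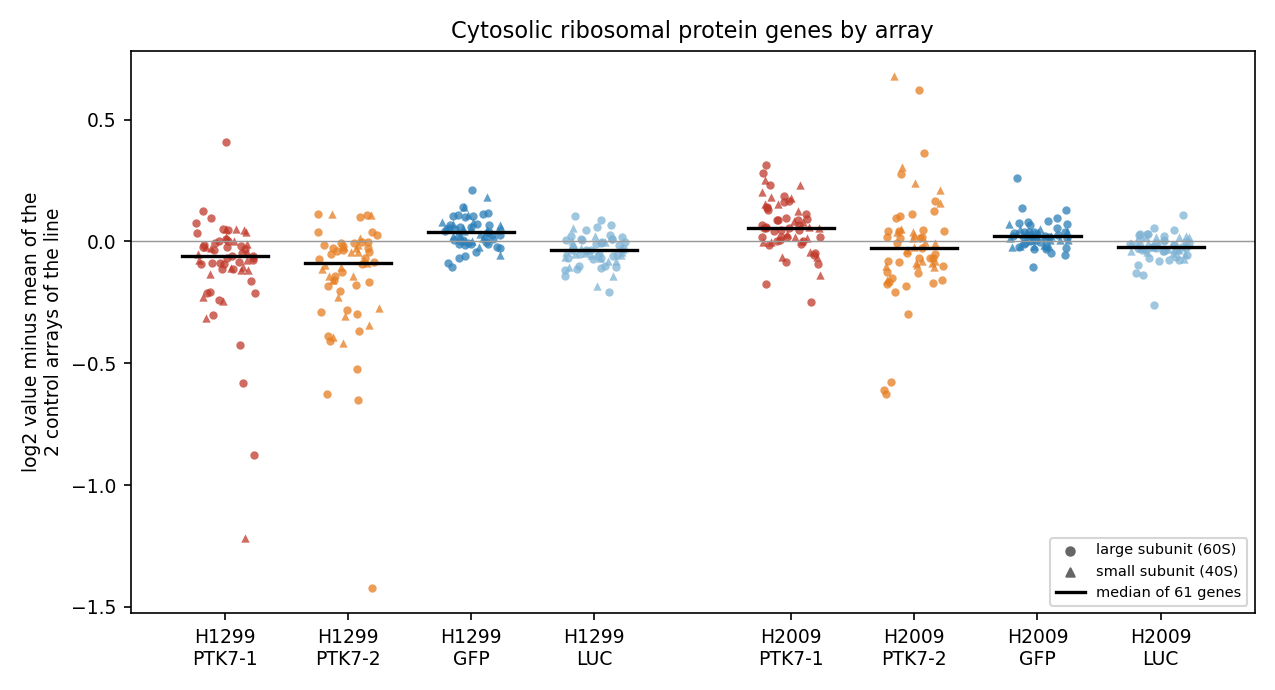
Each point is 1 of the 61 genes in 1 array, as its log2 value minus the mean of the 2 control arrays of the same line (circles for the large subunit, triangles for the small), and the black bar is the median. Most genes sit within 0.25 of the control mean, with medians from -0.09 to 0.05, and a few genes fall far below it with PTK7-1 or PTK7-2 in H1299.

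The first comparison asks whether ribosomal protein genes differed with hairpin PTK7-2. RPL29, a protein of the large subunit also known as a heparin-binding protein of the cell surface, was the 1 member that passed the threshold. It stood at 49.5% of the control signal over both lines. Its log2 value was 9.75 with PTK7-2 in H1299, against 11.22 with GFP and 11.13 with LUC. In H2009 it was 10.19 with PTK7-2, against 10.78 with GFP and 10.82 with LUC. PTK7-2 therefore lay far below the control pair in both lines, at 37.4% of the control mean in H1299 and 65.6% in H2009. The difference from the controls was -1.01 ± 0.17 (with the SE of the fit, limma adjusted p = 0.0226). With the hairpin as a block, which here fitted GFP and LUC apart, limma adjusted p was 0.0406. Thus 1 of 61 members passed where 2.7% of all 18404 genes did, and 1 did under the block where 2.15% of all genes did. The second probe set of RPL29 gave -0.75, in the same direction. The gene lies at chr3:51993522-51995895.

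That call rested on a narrow margin. It was lost when the GFP array of H1299 (adjusted p = 0.0552), the LUC array of H1299 (0.0565), the PTK7-2 array of H1299 (0.0870), the GFP array of H2009 (0.0550) or the LUC array of H2009 (0.0586) was left out, and when a gene's probe sets were averaged (0.0511), with log2 differences between -0.65 and -1.38 over the 8 fits with 1 array left out.

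With PTK7-1, RPL29 was near its controls. It stood at 10.96 in H1299, 86.2% of the control mean, and at 10.80 in H2009, 100.4% of the control mean, and its difference over both lines was -0.10 ± 0.17 (limma adjusted p = 0.891). The direct test of PTK7-2 against PTK7-1 gave -0.91 ± 0.20 for RPL29, the 1 member that passed (limma adjusted p = 0.0400), where 4.92% of all genes passed. With GFP and LUC fitted apart, which is all the block does here, the difference was the same but did not pass (limma adjusted p = 0.0615). Then 0 members passed, where 3.73% of all genes did. Over the 8 fits with 1 array left out, the difference of RPL29 ran from -1.28 to -0.54.

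Other large subunit genes with the smallest p for PTK7-2 are given as values, since none of them passed. Counting RPL29, 6 members had an unadjusted p under 0.05, all lower, where 17.4% of all genes had one. RPL3, which lies close to the peptidyl transferase centre, stood at 11.08 with PTK7-2 in H1299 against 11.72 with GFP and 11.74 with LUC, and at 11.25 in H2009 against 11.44 and 11.43. Its difference over both lines was -0.42 ± 0.13 (limma adjusted p = 0.125). RPL19 stood at 9.25 with PTK7-2 in H1299 against 9.84 with GFP and 9.93 with LUC, and at 9.66 in H2009 against 9.85 and 10.06. PTK7-2 was below both controls in both lines for RPL3 and RPL19, with a larger gap in H1299 than in H2009. RPL19 differed by -0.46 ± 0.13 (limma adjusted p = 0.0979), RPL32 by -0.52 ± 0.17 (0.159) and RPL10A by -0.31 ± 0.14 (0.283). Among 40S genes, RPS3A differed by -0.29 ± 0.11 (limma adjusted p = 0.226), with all 5 of its probe sets negative. In the other direction RPL10 had 0.33 ± 0.21, RPL23 0.20 ± 0.14, RPS23 0.21 ± 0.15 and RPL39L 0.19 ± 0.17.

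As a group with PTK7-2, 43 of 61 members were lower and 18 higher, with a median of -0.05 (-0.025 after quantile normalization, -0.076 with averaged probe sets), where all 18404 genes had a median of 0.04 and 42.3% were lower. Of the 20 members with several probe sets, 2 (RPL13 and RPL27A) had probe sets of both signs. In each line PTK7-2 lay below both controls for 24 members, or 39.3%, against 15.2% of all genes, and above both for 4 members (RPL10, RPL18, RPL39L and RPS28), against 18.1%. The 24 included RPL3, RPL4, RPL5, RPL8, RPL19 and RPL29 of the large subunit, and from the small subunit RPS3, RPS3A, RPS4X, RPS6, RPS14, RPS19, RPS27 and RPS29. Among the 24, differences over both lines ran from -1.01 for RPL29 to -0.03 for RPS4X. Over all 61 members the median absolute difference was 0.09, and the SE of the fit had a median of 0.11. The other genes in the middle brightness range of the members, 1240 in number, had a median of 0.02.

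The second comparison sets PTK7-1 against the controls. Here 0 of 61 members passed in limma, with or without the hairpin as a block, against 1.8% of all genes without it and 1.23% with it. An unadjusted p under 0.05 was found for 4, RPL30, RPL24, RPS24 and RPL39L, all lower, against 13.5% of all genes. RPL24, a protein of the bridge between the subunits, stood at 10.39 with PTK7-1 in H1299 against 11.003 with GFP and 10.93 with LUC, and at 10.76 in H2009 against 10.96 and 10.91. With PTK7-2 it stood at 10.96 and 10.98, level with the controls. Its difference for PTK7-1 was -0.38 ± 0.12 (limma adjusted p = 0.206), and the second probe set gave -0.42.

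RPL30 stood at 11.57 with PTK7-1 in H1299 against 12.005 with GFP and 11.99 with LUC, and at 11.64 in H2009 against 11.89 with each control, a difference of -0.34 ± 0.10 (limma adjusted p = 0.184, and 0.0392 with a trended prior, where it passed). With PTK7-2 it stood at 11.97 in H1299 and 11.77 in H2009, so that RPL30 was the 1 member with both PTK7 arrays below both controls in each line, a pattern of 4.53% of all genes. RPL18 was the 1 member with both PTK7 arrays above both controls in each line, a pattern of 4.93% of all genes, and its 8 values spanned only 12.17 to 12.21.

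RPS24, a small subunit gene mutated in some cases of Diamond-Blackfan anaemia, varied most among these. It stood at 8.62 with PTK7-1 and 9.45 with PTK7-2 in H1299, against 9.89 with GFP and 9.78 with LUC. In H2009 it stood at 9.02 with PTK7-1 and 9.84 with PTK7-2, against 9.21 and 9.11. PTK7-1 was below both controls in each line, at 43.1% of the control mean in H1299 and 90.8% in H2009, while PTK7-2 was below them in H1299 and above them in H2009. The differences from the controls were -0.68 ± 0.25 for PTK7-1 (limma adjusted p = 0.272) and 0.14 ± 0.25 for PTK7-2 (0.840), and the direct test between the hairpins gave 0.82 ± 0.29 (0.162).

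**Figure D2:**
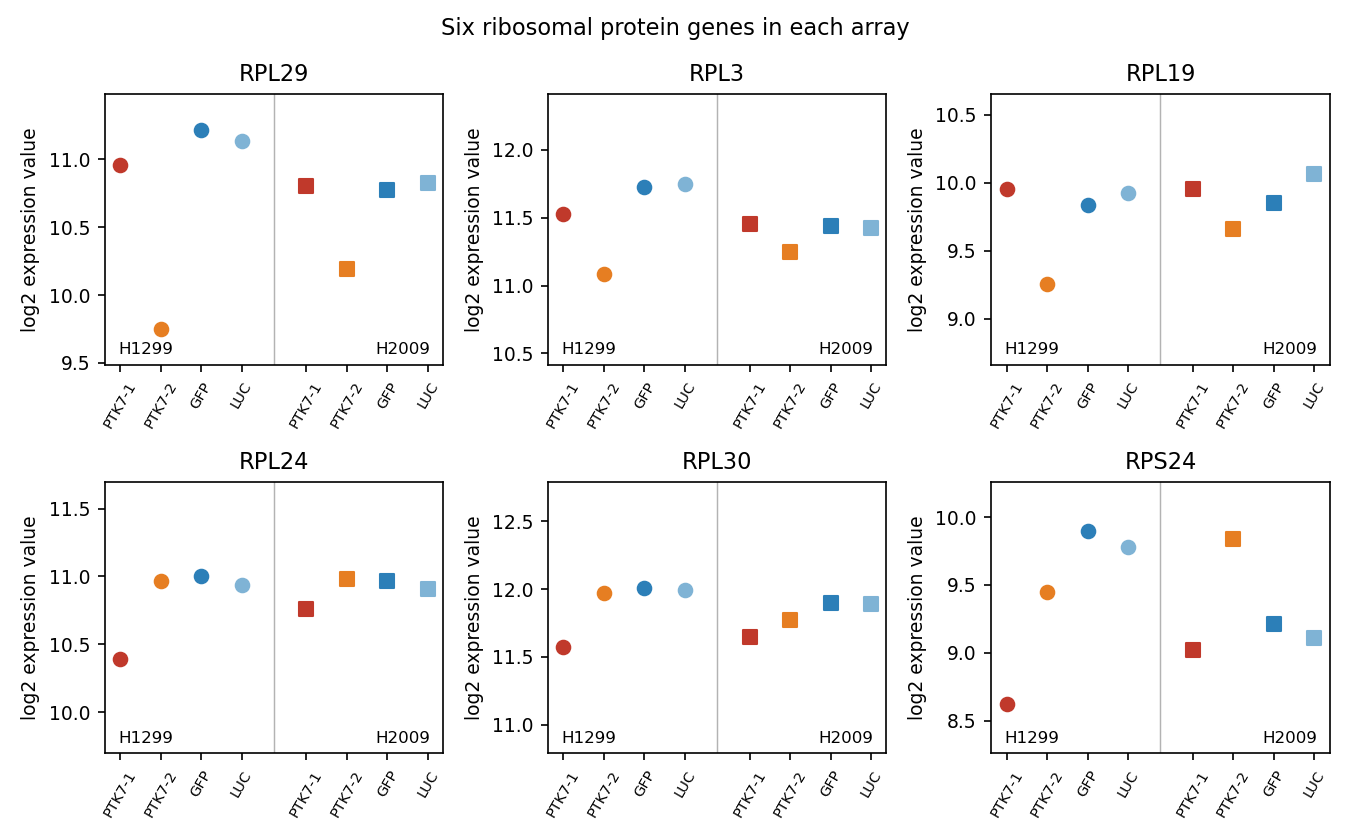
Log2 values of RPL29, RPL3, RPL19, RPL24, RPL30 and RPS24 in each of the 8 arrays, with H1299 as circles on the left and H2009 as squares on the right of each panel, PTK7 hairpins before control hairpins, and axes of equal length. RPL29, RPL3 and RPL19 are lowest with PTK7-2 in both lines, and RPL24, RPL30 and RPS24 are lowest with PTK7-1.

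As a group with PTK7-1, 26 of 61 members were lower and 35 higher, with a median of 0.01, where all genes had a median of 0.01 and 46.4% were lower. Probe sets of both signs were found for 5 of the 20 members with several (RPL7, RPL13, RPL31, RPS3A and RPS9). PTK7-1 lay below both controls in each line for 7 members, or 11.5%, against 17.4% of all genes, and above both for 6, or 9.84%, against 18%. With PTK7-1, 46 members were below the control mean of the line in H1299 and 14 in H2009. In each line 45 members were below that mean with LUC and 16 with GFP. These control counts mirror each other, since GFP and LUC make up the mean, so they are not like for like with the PTK7 arrays. In the direct comparison of PTK7-2 with PTK7-1, 40 of 61 members were lower with PTK7-2 and 21 higher, with a median of -0.05, where all genes had a median of 0.02 and 45.5% were lower. There 6 of the 20 had probe sets of both signs (RPL27A, RPL31, RPLP1, RPS2, RPS9 and RPS28). An unadjusted p under 0.05 was found for 9 of the 61, against 19.1% of all genes. The 2 hairpins are set against the same control arrays, so their values are given side by side and their likeness is not measured.

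**Figure D3:**
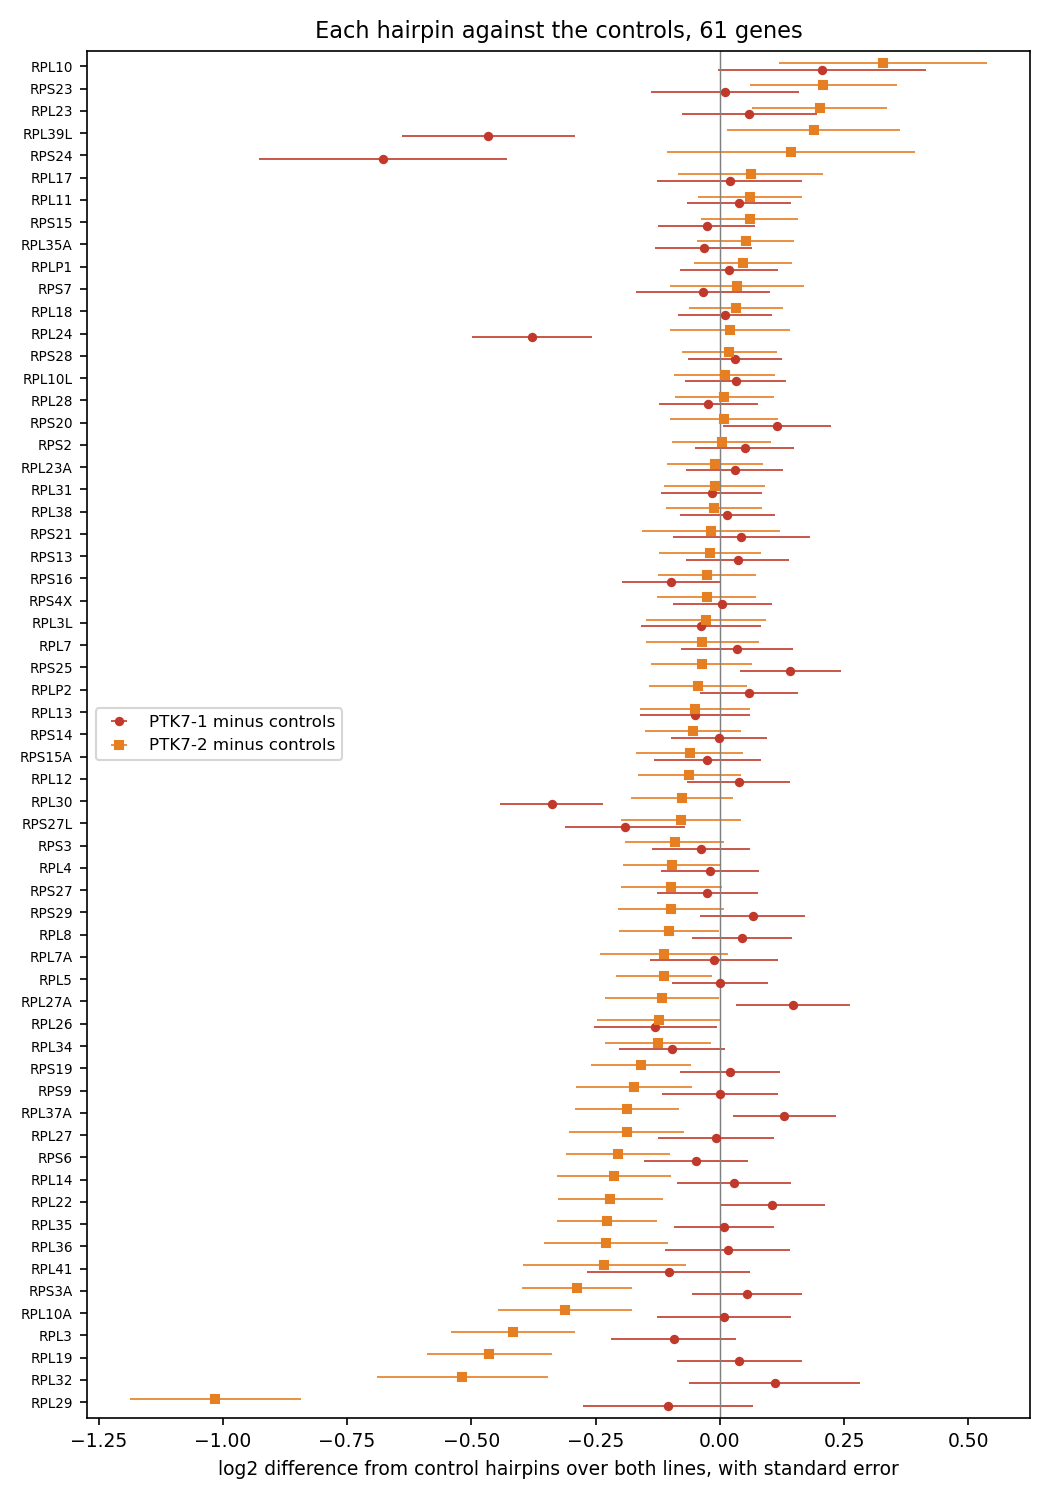
For each of the 61 genes, the log2 difference from the control hairpins over both lines with PTK7-1 (circles) and with PTK7-2 (squares), with standard errors of the fit, ordered by the PTK7-2 difference. RPL29 stands apart at -1.01 with PTK7-2 and -0.10 with PTK7-1, and RPS24, RPL39L, RPL24 and RPL30 are lowest with PTK7-1.

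The 4 paralogs showed no shared behaviour. RPL39L, a testis-enriched copy of RPL39, stood at 7.20 with PTK7-1 and 8.18 with PTK7-2 in H1299, against 8.02 with GFP and 8.14 with LUC, and at 7.36 and 7.69 in H2009, against 7.41 and 7.42. Its H1299 signal with PTK7-1 was 54.5% of the control mean, and its difference over both lines was -0.47 ± 0.17 (limma adjusted p = 0.280). The direct difference between the hairpins, 0.65 ± 0.20, did not pass (limma adjusted p = 0.115), but did so without the PTK7-1 array of H2009 (0.0369). RPS27L, a p53-responsive copy of RPS27, stood at 5.45 and 5.69 with the PTK7 hairpins in H1299, against 5.90 with GFP and 5.62 with LUC. In H2009 it stood at 5.62 and 5.603, against 5.69 and 5.68. RPL3L, known from striated muscle, and RPL10L, known from testis, ranged over the 8 arrays from 5.32 to 5.79 and from 4.79 to 5.12.

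By their brightest probe sets, the genes of the 5S ribonucleoprotein, RPL5 and RPL11, moved little. With PTK7-2 over both lines, the other probe sets of RPL5 gave -0.12 and -0.22, against -0.11 for the brightest. With PTK7-1 they gave 0.05 and 0.09. RPL5 stood at 12.18 and 12.07 with PTK7-1 and PTK7-2 in H1299, against 12.23 with GFP and 12.24 with LUC, and at 12.27 and 12.16 in H2009, against 12.24 and 12.21. RPL11 stood at 10.97 and 10.98 in H1299, against 11.03 and 11.02, and at 10.92 and 10.94 in H2009, against 10.75 and 10.81. RPL11 was below the controls in H1299 and above them in H2009 with both hairpins. RPS6, the S6 kinase substrate of the small subunit, had -0.05 ± 0.10 with PTK7-1 and -0.21 ± 0.10 with PTK7-2. By the probe sets used, the stalk genes RPLP1 and RPLP2 kept within 0.10 of their control means in all PTK7 arrays. The second probe set of RPLP1 stood at 10.81 with PTK7-1 in H2009, against 10.61 with GFP and 10.63 with LUC.

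Averaged over both PTK7 hairpins and both lines, 0 of 61 members passed in limma, with or without the hairpin as a block, and 0 had an unadjusted p under 0.05, where 0% of all genes passed without the block, 0.81% with it, and 9.88% had an unadjusted p under 0.05. Of the members 41 were lower, against 44.2% of all genes, and 6 of the 20 with several probe sets had both signs. The lowest p belonged to RPL3, at -0.25 ± 0.12 (limma adjusted p = 0.549). In H1299 alone 54 of 61 members were lower, with a median of -0.09, where 50.6% of all genes were lower and the median was -0.0026. In that line 20 members had both PTK7 arrays below both controls, or 32.8%, against 16.1% of all genes, and 3 had both above, against 15.6%. In H2009 alone 29 were lower and 32 higher, with a median of 0.01, where 43.9% of all genes were lower. There 3 members, RPL30, RPL41 and RPS27L, had both PTK7 arrays below both controls, against 18.9% of all genes, and 12 had both above, against 26%. Neither line had a member past the threshold, with 2 (RPL3 and RPS24) at an unadjusted p under 0.05 in H1299 and 0 in H2009, and 0 with the block. In H1299 alone 0.00543% of all genes passed, 0.0217% with the block, and 7.48% had an unadjusted p under 0.05. In H2009 alone 0% passed, with or without the block, and 7.98% had an unadjusted p under 0.05.

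The difference between the lines was tested directly. PTK7 itself differed between PTK7 and control hairpins by -0.30 ± 0.17 in H1299 (limma adjusted p = 0.804) and -0.96 ± 0.17 in H2009 (0.222). The lines are thus compared at unlike changes of PTK7. The PTK7 minus control difference in H1299, minus that in H2009, was negative for 55 of 61 members, with a median of -0.11. Of all genes 54.7% were negative and the median was -0.03. In limma 0 members passed, with or without the block, where 0% of all genes passed without it and 0.00543% with it. The 1 member with an unadjusted p under 0.05 was RPS21, at -0.42 ± 0.18, where 5.17% of all genes had one. RPS21 stood at 8.75 and 8.60 with the PTK7 hairpins in H1299, against 8.92 with GFP and 8.82 with LUC, and at 8.42 and 8.46 in H2009, against 8.29 and 8.15.

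The control hairpins give the background for these shifts. With LUC, 50 of 61 members were lower than with GFP over both lines and 11 higher, with a median of -0.06 where all genes had a median of 0.01 and 47.2% were lower. LUC lay below GFP in each line for 37 members, or 60.7%, against 26.4% of all genes, and above it for 8, against 30.3%. In limma 0 members passed and 0 had an unadjusted p under 0.05, where 0% of all genes passed and 3.65% had an unadjusted p under 0.05. The median shift of LUC against GFP was -0.06, and that of PTK7-2 against the controls -0.05. Its largest single difference was -0.35 ± 0.17 for RPL32, smaller than that of RPL29 with PTK7-2. RPL32 with PTK7-2 stood at 7.20 in H1299, against 7.82 with GFP and 7.40 with LUC, and at 6.24 in H2009, against 7.001 and 6.73.

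Between the lines themselves, under control hairpins, ribosomal protein genes stood higher in H1299. Of the 61 members 56 were higher in H1299 and 5 lower, with a median difference of 0.22, where all genes had a median of 0.06 and 41.5% were lower. Probe sets of both signs were found for 4 of the 20 members with several (RPL5, RPL27A, RPS3A and RPS28). In limma 12 members passed, all higher in H1299, where 24.8% of all genes passed, 12.5% as higher and 12.3% as lower. With the block 16 members passed, against 31.3% of all genes. The controls of H1299 lay above those of H2009 for 49 members, or 80.3%, against 40.6% of all genes, and below them for 2 (RPL23A and RPL27), against 28.5%.

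RPL10, an X-linked gene needed for the last step of large subunit maturation, differed most. It stood at 11.34 with GFP and 11.31 with LUC in H1299, against 9.77 and 9.25 in H2009, a 3.51-fold difference (log2 1.81 ± 0.26; limma adjusted p = 0.0026). Under PTK7 hairpins it stood at 11.73 and 11.36 in H1299, against 9.52 and 10.13 in H2009, so all 4 arrays of H1299 lay above all 4 of H2009. RPL17 stood at 8.35 and 8.23 in H1299, against 6.94 and 6.79 in H2009, 2.68-fold higher (1.42 ± 0.17; limma adjusted p = 0.0010).

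RPS23, which lines the decoding centre, stood at 10.42 and 10.05 in H1299, against 8.84 and 8.89 in H2009, 2.59-fold higher (1.37 ± 0.17; limma adjusted p = 0.0014). RPS4X, which is X-linked like RPL10, stood at 11.70 and 11.64 in H1299, against 10.89 and 10.88 in H2009, 1.73-fold higher (0.79 ± 0.11; limma adjusted p = 0.0024). These 4 genes passed in each of the 8 fits with 1 array left out. The other 8 that passed were RPS20, RPS21, RPL41, RPS16, RPS7, RPS25, RPLP1 and RPL28, from 1.58-fold for RPL41 to 1.32-fold for RPL28. Their calls depended on single control arrays, since 5 members passed without the GFP array of H1299, 5 without the GFP array of H2009 and 4 without the LUC array of H2009. RPL10 lies at chrX:154398065-154402339, RPS4X at chrX:72272042-72277248, RPL17 at chr18:49488481-49492465 and RPS23 at chr5:82273320-82278354.

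**Figure D4:**
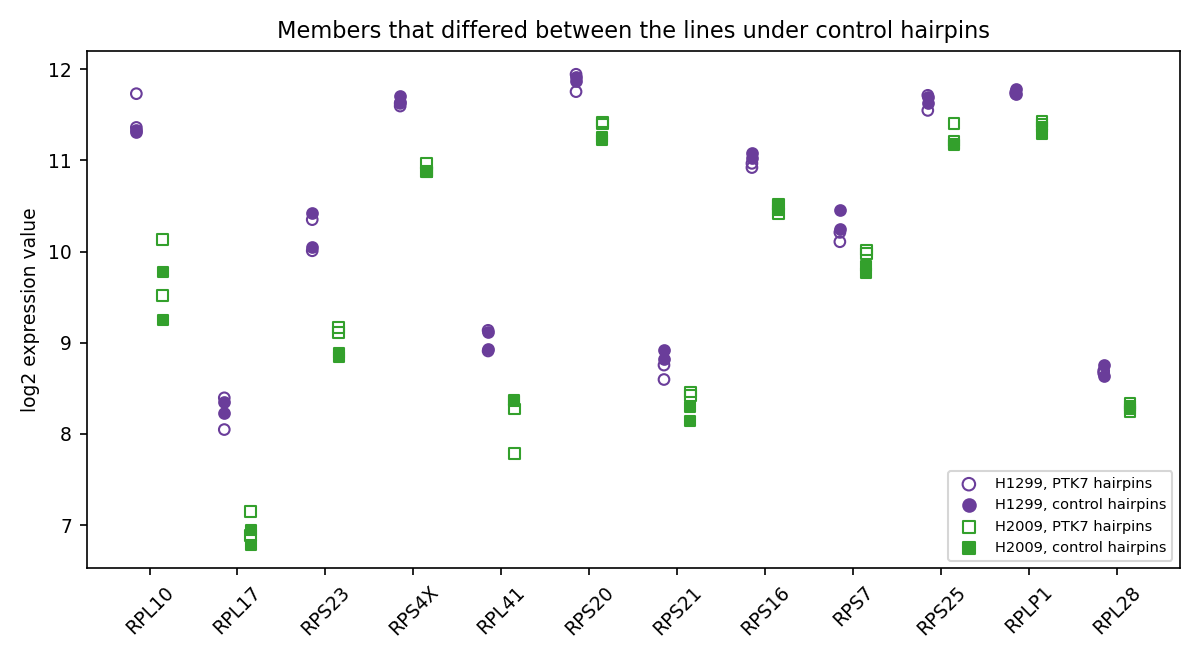
Log2 values of the 12 genes that passed between the lines under control hairpins, with H1299 as circles and H2009 as squares, filled for control hairpins and open for PTK7 hairpins, ordered by the size of the difference. RPL10, at 11.31 to 11.34 in the H1299 controls against 9.25 to 9.77 in the H2009 controls, has the widest gap.

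Genes that make, assemble or regulate the ribosome were read from lists beside the members. The counts per list stand beside 1.8% of all genes that passed with PTK7-1 and 2.7% with PTK7-2. With PTK7-1, EIF6, which keeps free large subunits from joining small ones, fell by 1.36 ± 0.10 on the log2 scale (limma adjusted p = 0.0019) and was the 1 of 20 initiation factors that passed. With PTK7-2, EIF5B, the factor that joins the subunits, fell by 0.92 ± 0.11 (0.0060), the 1 of the 20. The direct tests of the hairpins passed for both genes, at 1.27 ± 0.12 for EIF6 and -0.74 ± 0.12 for EIF5B, in opposite directions.

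Single assembly and transcription factors fell with PTK7-2, while their lists had as many higher as lower genes or nearly so: 12 higher and 13 lower large subunit assembly factors, with a median of -0.0063, and 7 and 7 polymerase I genes, with a median of 0.02. SDAD1, needed for large subunit export, fell by 1.12 ± 0.16 (limma adjusted p = 0.0142) and NOP2, an rRNA methyltransferase, by 0.78 ± 0.16 (0.0446, or 0.0613 with the block), 2 of 25 large subunit assembly factors. UBTF, the polymerase I activator, fell by 0.54 ± 0.11 (limma adjusted p = 0.0382, or 0.0675 with the block), 1 of 14 polymerase I genes, and LARP4B by 0.66 ± 0.10 (0.0162), 1 of 18 genes of mTORC1 and TOP mRNA control. With PTK7-1 none of these 3 lists had a gene past the threshold. Of all genes, 1.8% passed with PTK7-1 and 2.7% with PTK7-2.

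MDM2, the target of free RPL5 and RPL11, fell by 1.72 ± 0.19 with PTK7-2 (limma adjusted p = 0.0054). This was the 1 of 7 genes of its list, where 2.7% of all genes passed. MDM2 stood at 7.57 with PTK7-2 in H1299, against 9.70 with GFP and 9.72 with LUC, and at 7.73 in H2009, against 8.88 and 9.15. With PTK7-1 it stood at 10.03 and 9.37, above all controls of its line. Further lists held 18 other TOP-type translation genes, 22 small subunit assembly factors and 8 ribosomal protein chaperones. Also read were 6 ribosomal protein paralogs outside the rule and 11 genes of MYC and promoter-linked factors. Where 1.8% of all genes passed with PTK7-1 and 2.7% with PTK7-2, 0 genes of these lists passed with either hairpin. Their lowest adjusted p belonged to RPL22L1, the paralog of RPL22, with -0.62 ± 0.13 for PTK7-2 (limma adjusted p = 0.0540). It stood at 5.22 with PTK7-2 in H1299, against 5.79 and 5.80, and at 4.47 in H2009, against 5.29 and 4.96.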

How the data were processed

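The deposited log2 values were made by the authors with RMA (background correction, normalization between arrays, summary per probe set) in R version 2.14.0, as recorded per the submitters' processing notes. Array medians lay between 5.31 and 5.41 over 32321 probe sets. The annotation gave 19158 probe sets 1 symbol, 1388 several and 11775 none; 637 genes had several probe sets, of which the brightest was used. Ribosomal protein genes have many processed pseudogenes, so the source of a probe set's signal is uncertain. Signals of different probe sets do not rank genes.

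Fits used limma 3.58.1 in R 4.3.3 over all 18404 genes and 8 arrays, with Benjamini-Hochberg adjustment at 0.05: arm (control, PTK7-1, PTK7-2) plus line for the hairpins, group means for the other comparisons, and hairpin plus line for LUC against GFP. Fits were tested on simulated data with independent errors between arrays, so that test does not cover arrays that deviate together. The labels give both lines the same hairpins. Arrays of 1 hairpin deviated together between the lines (r = 0.230 for control and 0.407 for PTK7 hairpins, across genes). Fits with the hairpin as a block were therefore added. Comparisons of single PTK7 hairpins already fit PTK7-1 and PTK7-2 apart, so there the block only fitted GFP and LUC apart. The comparison of LUC with GFP already fits every hairpin and had no separate block fit. Alternatives were a trended prior, averaged probe sets, leaving out each array, further quantile normalization, centring on medians, and a filter on the dimmest 40% of genes.

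Members, lists and tests were chosen with earlier results of these data known. Named genes were PTK7, members by role, the 4 smallest p per direction and comparison, and up to 3 per list; the order of arrays (which members lay beyond both controls) was read after values were seen. Figures used matplotlib 3.10.9 in Python 3.11.15.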

Additional observations from a re-analysis of the deposited data

How the results depend on the processing

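Counts of members past the threshold differed from those reported by over 1.5 times in these settings. With PTK7-1 against controls a trended prior gave 1 (RPL30) in place of 0. With PTK7-2 against controls averaged probe sets gave 0 in place of 1, and leaving out single arrays gave 0 to 1. For PTK7-2 against PTK7-1 quantile normalization, averaged probe sets and the replicate block each gave 0 in place of 1 (RPL29 at -0.91 with adjusted p = 0.0615 under the block), and leaving out single arrays gave 0 to 1. That 1 was RPL29 without the GFP array of H1299 or the PTK7-2 array of H2009, and RPL39L without the PTK7-1 array of H2009. Between the lines under control hairpins, leaving out single arrays gave 4 to 15 in place of 12. There the member median of 0.22 was 0.16 with quantile normalization and 0.27 with median centring. Over the fits without 1 array, medians ran from 0.16 to 0.26 between the lines, -0.13 to -0.012 between the PTK7 hairpins, -0.13 to -0.055 in H1299, -0.027 to 0.054 in H2009, -0.16 to -0.071 for the difference between lines, and -0.11 to -0.0037 between LUC and GFP. They ran from -0.031 to 0.037 for PTK7-1 against controls, with the sign of the full fit in 5 of 8, from -0.080 to -0.045 for PTK7-2, and from -0.059 to -0.0089 for the average of both hairpins. The cause of these changes was not tested, beyond the fewer arrays. Of 125 settings each, counts kept within 1.5 times in 107 and medians within the spread of 0.0411 between arrays in 114. The replicate block ended no other call of a member than RPL29 between the PTK7 hairpins and RPL28 between the lines (adjusted p = 0.0560). The 601 refits of single members took only those with an unadjusted p under 0.05 in the full fit. They shared most or all arrays with it, so that none changed sign is no separate support.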

Other observations

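Mitochondrial ribosomal protein genes, which build the separate ribosome of that organelle, were read by their MRPL and MRPS symbols after values had been seen. With PTK7-1, 54 of 70 were lower than the controls, with a median of -0.12, where 46.4% of all genes were lower and the median was 0.01. With PTK7-2, 47 of 70, or 67.1%, were higher, with a median of 0.05, which is close to the 57.7% and 0.04 of all genes. In the direct comparison of PTK7-2 with PTK7-1, 53 of 70 were higher with PTK7-2, with a median of 0.18, where 54.5% of all genes were higher and the median was 0.02, while the cytosolic members had -0.05.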
